A study of Mus musculus with 2 samples.

Results

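The cytokines described here are Il11, Lif, Il6, Clcf1, Ctf1 and Osm, which were chosen by name as ligands of the shared receptor subunit gp130 after their values in these libraries were known. All 6 were present among the 32245 gene columns of each library, and their source was sought in cell classes set by marker genes. Single cells of the knee joints of female mice aged 1 month were profiled by droplet sequencing of transcript 3′ ends, with 1 library per genotype. The control library was from Stat3fl/fl mice, which carry loxP sites in both copies of Stat3 and no Cre, and the mutant library was from mice labelled Acan-Cre+/Cre;Stat3fl/fl, in which Cre is expressed from the aggrecan locus, a gene of cartilage cells, and acts on the same floxed Stat3. The study's methods describe this Cre as an inducible form activated after birth by tamoxifen. Both genotypes thus share the floxed alleles, and several mice were pooled per library and sorted as live cells negative for CD31, Ter119 and CD45. With 1 library per genotype there was no replicate check and no test was made, so each difference below describes these 2 libraries.

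Ligands of this family bind a ligand-specific receptor subunit and then gp130, encoded by Il6st, and the complex activates JAK kinases, which phosphorylate STAT3. IL-11 uses Il11ra1 and IL-6 uses Il6ra, LIF and cardiotrophin-1 (Ctf1) use Lifr, oncostatin M (Osm) uses Osmr or Lifr, and Clcf1 acts through Cntfr together with Lifr. In joint tissues, IL-11, LIF and IL-6 are known as products of chondrocytes, fibroblasts and osteoblasts, and Socs3 is the classical STAT3-induced feedback inhibitor of the receptor.

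Of the 2 libraries, the control had 4903 cells and the mutant 1340, at median depths of 4344 and 3743 estimated UMIs (unique molecular identifiers, one per captured transcript). Levels are given as CPM (counts per 1000000) of the estimated UMIs summed over the cells of a group, and ratios as the log2 of mutant over control after adding 1 CPM, which understates the change of low genes. Shares of cells above 0 carry exact (Clopper-Pearson) 95% binomial intervals, which cover counting error only, and where no cell was above 0 the limit given is 3 counts over the number of cells. The 2 libraries differed in blood cell content: globin UMIs were detected in 75.7% of the control library's cells and 8.43% of the mutant's, and the erythroid gate took 1673 and 35 cells, so ratios over all cells compare different mixtures. In Sox9+Col2a1+ cells, here every cell with both genes above 0, Stat3 itself measured 143 and 104 CPM (control and mutant), a readout of transcript 3′ ends that cannot tell floxed from recombined transcripts. There were 1013 such cells in the control library and 335 in the mutant, with medians of 4975 and 8521 UMIs, and 50.5% and 0.896% of them held a globin UMI. The authors' deposited selection mark is on 501 and 332 of these cells, which are those without a globin UMI, so the control set used here is the wider one.

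Most of the few Lif-positive mutant Sox9+Col2a1+ cells also held Il11, while 4 of 30 did in the control, as described below. The sequences of both genes before the transcription start are therefore shown, with that of Il6 for comparison. Of the 6 cytokines, 4 matched the RefSeq promoter table of GRCm38.p6, in 5 windows, since Il11 has 2 starts there. Il11 (ENSMUSG00000004371) lies on chromosome 7 (GRCm38, bases 4772373 to 4782859, minus strand), Lif (ENSMUSG00000034394) on chromosome 11 (4257557 to 4272514, plus strand), and Il6 (ENSMUSG00000025746) on chromosome 5 (30013114 to 30019981, plus strand), in the Gencode M21 annotation. The 250 bases before the start are given 5′ to 3′ on the gene's strand, at chr7:4778142-4778391 for the downstream start of Il11, chr11:4257318-4257567 for Lif and chr5:30012864-30013113 for Il6, and capitals mark TGANTCA, the sequence bound by AP-1 (Fos and Jun family) factors.
Il11: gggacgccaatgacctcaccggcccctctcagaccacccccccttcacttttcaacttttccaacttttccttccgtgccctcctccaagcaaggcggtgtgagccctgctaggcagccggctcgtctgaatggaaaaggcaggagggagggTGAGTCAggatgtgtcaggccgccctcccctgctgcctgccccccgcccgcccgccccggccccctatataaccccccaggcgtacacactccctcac
Lif: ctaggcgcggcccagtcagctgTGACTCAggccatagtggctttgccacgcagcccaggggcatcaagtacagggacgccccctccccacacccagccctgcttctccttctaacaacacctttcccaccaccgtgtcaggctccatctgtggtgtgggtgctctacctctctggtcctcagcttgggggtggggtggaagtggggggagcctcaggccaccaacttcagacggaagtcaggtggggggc
Il6: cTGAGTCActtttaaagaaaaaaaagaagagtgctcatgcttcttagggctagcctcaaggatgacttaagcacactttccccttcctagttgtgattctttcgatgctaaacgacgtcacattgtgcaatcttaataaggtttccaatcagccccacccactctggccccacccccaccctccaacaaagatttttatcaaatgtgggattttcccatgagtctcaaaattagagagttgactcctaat
The match, whose letters read the same on both strands, lies 92 to 98 bases before the Il11 start, 222 to 228 before the Lif start and 243 to 249 before the Il6 start. Of 32851 windows of the same length, 6.75% held it. The window of the other Il11 start and that of Ctf1 held none. The STAT-type letters TTCNNNGAA, which also read alike on both strands, were in 7.02% of all windows and in none of these 5. Clcf1 (ENSMUSG00000040663, chromosome 19) and Osm (ENSMUSG00000058755, chromosome 11) were not matched. A match describes letters and is not a measured site, and counting at 3′ ends does not show which start was used.

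Il11 was the most abundant of the 6 cytokines in both libraries by CPM, and the one with the largest ratio. Over all cells it was detected in 141 of 4903 control cells (2.88%, interval 2.43% to 3.38%) at 9.13 CPM, and in 198 of 1340 mutant cells (14.8%, interval 12.9% to 16.8%) at 133 CPM. Its log2 ratio was 3.73, or 2.42 when cells with a globin UMI were left out of both libraries and 2.99 outside the erythroid gate. Genes at least 2-fold higher in the mutant library made up 10.5% of the 8600 genes with a mean of at least 10 CPM over all cells, a mean that only Il11 of the 6 reached. Since Il11 was chosen with this contrast known, its ratio is a description.

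The other cytokines were rare. Lif was above 0 in 38 control and 28 mutant cells (1.86 and 7.35 CPM), and Il6 in 30 and 26 cells (1.40 and 6.17 CPM). Clcf1 was above 0 in 59 control and 77 mutant cells (2.56 and 14.8 CPM), and Ctf1 in 20 and 18 cells (0.819 and 2.68 CPM). Each of these 4 was thus at a higher CPM in the mutant library, with log2 ratios of 1.55 for Lif, 1.58 for Il6, 2.15 for Clcf1 and 1.02 for Ctf1. Without cells holding a globin UMI the ratios were 0.65 for Lif, 0.97 for Il6, 1.27 for Clcf1 and 0.47 for Ctf1. Osm had 1 UMI in each of 5 control cells, all in the erythroid gate, and none in 1340 mutant cells, which allows a share of up to 0.224%.

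In Sox9+Col2a1+ cells, Il11 was detected in 93 of 1013 control cells (9.18%, interval 7.47% to 11.1%) and in 127 of 335 mutant cells (37.9%, interval 32.7% to 43.3%). Its level went from 31.7 CPM to 288 CPM, which is a log2 ratio of 3.14. Over the 501 and 332 marked cells the levels were 43.1 and 290 CPM and the log2 ratio 2.72. The median over the 6983 genes that reached 10 CPM in both was -0.19. Among 7682 genes, 3.05% were at least 2-fold higher in the mutant library and 6.25% at least 2-fold lower. The mutant cells were deeper, and with the cells of at least 2000 UMIs thinned to that number the expected shares above 0 were 4.55% and 23.1%. Among cells with 4000 to 8000 UMIs, 61 of 518 control cells (11.8%) and 23 of 83 mutant cells (27.7%, 18.4% to 38.6%) held Il11, at 34.9 and 162 CPM. Among cells with at least 8000 UMIs, the shares were 16.9% of 154 and 53.5% of 185 cells, at 33.7 and 324 CPM. With few positive cells, Il11 was at 14.5 and 78.1 CPM below 2000 UMIs, and at 17.5 and 109 CPM between 2000 and 4000 UMIs. Il11 was thus higher in the mutant library at matched depth. Within the mutant cells its CPM rose with depth over all these ranges. In the control it was higher above 4000 UMIs than below, and similar in the 2 deeper ranges.

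**Figure D1:**
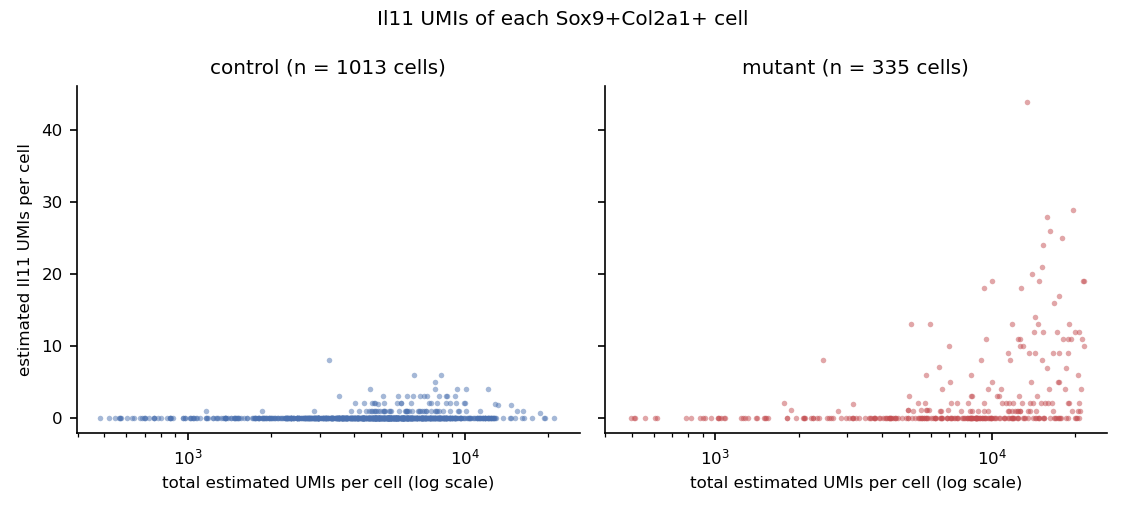
Estimated Il11 UMIs (y axis) against total estimated UMIs on a log scale (x axis) for each Sox9+Col2a1+ cell, with the 1013 control cells on the left and the 335 mutant cells on the right. No control cell reached 10 Il11 UMIs, the highest value being 7.99, whereas 34 mutant cells had 10 or more (38 after rounding to whole UMIs, 35 of them with at least 8000 total UMIs), with a highest value of 44.0.

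The mutant library differed both in how many chondrocytes held Il11 and in how much each held. With the estimates rounded to whole UMIs, 50 of the 93 positive control cells had 1 estimated UMI, 39 had 2 to 4, 4 had 5 to 9 and none had 10 or more. In the mutant library, 33 had 1, 35 had 2 to 4, 21 had 5 to 9 and 38 had 10 or more, or 11.3% of the 335 cells. Without rounding, 34 mutant cells lay at 10 or above. Positive cells had a median Il11 level of 209 CPM (control) and 360 CPM (mutant). No small number of cells decided either sum: the 3 cells with most Il11 gave 11.6% and 11.4% of the UMIs, and 24 and 23 cells were needed for 50% of them.

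The other members differed less in Sox9+Col2a1+ cells. Clcf1 was above 0 in 31 control cells (3.06%, 2.09% to 4.32%) and 35 mutant cells (10.4%, 7.39% to 14.2%) at 6.17 and 18.1 CPM, a log2 ratio of 1.41. Thinned to 2000 UMIs its shares were 1.12% and 3.15%. Its level was higher in the mutant library among cells with at least 8000 UMIs (4.78 and 20.3 CPM), and also, from 1 to 3 positive cells a group, among those with 2000 to 4000 (2.68 and 29.8 CPM) and those below 2000 UMIs (15.1 and 26.2 CPM). Between 4000 and 8000 UMIs it was lower (7.40 and 4.06 CPM, from 19 and 2 positive cells). Lif was above 0 in 30 control cells (2.96%, 2.01% to 4.20%) and 14 mutant cells (4.18%, 2.30% to 6.91%), at 6.73 and 10.05 CPM, a log2 ratio of 0.52 that was 0.14 without the 3 highest cells of each library. The Lif shares overlapped within their counting error.

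Il6 in these cells rested on single cells. It was above 0 in 12 control and 4 mutant cells at 2.67 and 3.57 CPM, and the 3 mutant cells with most Il6 held 91.1% of its UMIs, 1 of them about 8. The log2 ratio of 0.32 became -0.97 without the 3 highest cells of each library and -1.63 when each of the selecting genes had to reach 2 UMIs, so its direction is not set by these data. Ctf1 was above 0 in 6 and 8 cells (1.05 and 3.25 CPM), and Osm in none of either library.

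The cells that held each cytokine were found with 15 classes of 6 markers each, where a cell entered the class with most of its markers above 0, at least 3, and stayed ungated otherwise or in a tie. The chondrocyte gate took 1143 control and 337 mutant cells, of which 927 and 272 were also Sox9+Col2a1+. It was followed by the fibroblast gate with 252 and 121 cells, the osteoblast gate with 146 and 117, the marrow stromal cell gate with 140 and 109, and the synovial lining fibroblast and tenocyte gates. No cell of either library passed the macrophage or mast cell gate, and 994 control and 472 mutant cells were ungated.

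Il11 came mainly from chondrocytes in both libraries, the chondrocyte gate supplying 81.0% (control) and 87.2% (mutant) of its UMIs beside 24.0% and 38.9% of the UMIs of all genes. Its level there was 30.8 and 298 CPM, in a gate where 2.75% of genes were at least 2-fold higher in the mutant library. The osteoblast gate came next in the mutant library: 26 of 117 cells held Il11 (22.2%, 15.1% to 30.8%) at 57.1 CPM, against 5 of 146 (3.42%, 1.12% to 7.81%) at 7.66 CPM in the control, with thinned shares of 8.51% and 1.499%. Of these osteoblast-gated cells, 19 mutant and 5 control cells were also Sox9+Col2a1+. Genes at least 2-fold higher in the mutant library made up 4.77% of those tested in this gate. In the fibroblast gate Il11 was above 0 in 6 of 252 control cells (5.99 CPM) and 13 of 121 mutant cells (14.5 CPM).

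Low Il11 values were read against erythroid cells, which should lack it. In the control, 14 of 1673 erythroid-gated cells (0.837%) were above 0, at a median depth of 6079 UMIs, and all 14 had less than 1 estimated UMI, the highest being 0.842. In the mutant library none of 35 such cells was above 0, at a median of 1349 UMIs, which allows a share of up to 8.57% (3 counts of 35 cells). The mutant shares in the marrow stromal (5.50%), synovial lining (5.17%), tenocyte (2 of 40 cells) and mural (4.76%) gates lay below that limit and cannot be told apart from free RNA. The osteoblast share of 22.2% lay above it, but those cells had a median of 6263 UMIs, and their thinned share of 8.51% did not.

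**Figure D2:**
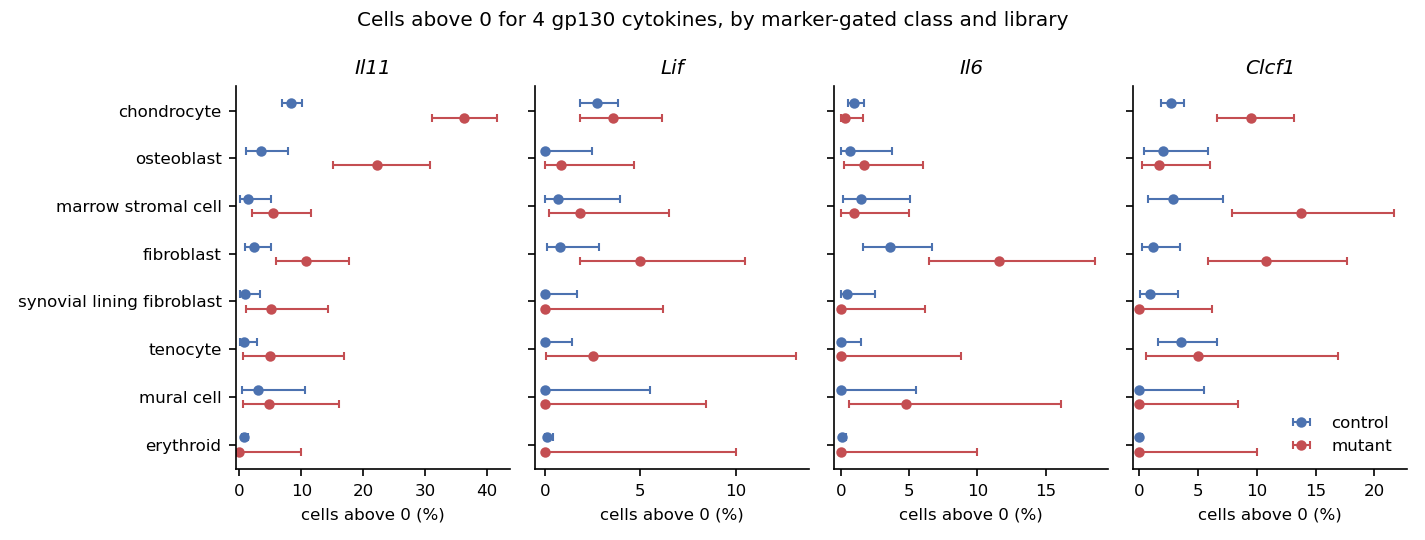
Share of cells above 0 (x axis, percent) for Il11, Lif, Il6 and Clcf1 in 8 marker-gated classes (y axis), in the control (blue) and mutant (red) library, with exact 95% binomial intervals as bars. For Il11 the shares are 8.40% and 36.2% in chondrocytes and 3.42% and 22.2% in osteoblasts (control and mutant). For Il6 the highest share is in mutant fibroblasts (11.6%), and for Clcf1 in mutant marrow stromal cells (13.8%). The intervals cover counting error within each library and do not compare genotypes. Shares are not thinned, and median depths (control and mutant) were 4693 and 8389 UMIs in the chondrocyte gate and 4536 and 6263 in the osteoblast gate. The x scale differs between panels.

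Il6 was most frequent in the fibroblast gate of the mutant library. In this gate it was above 0 in 9 of 252 control cells (3.57%, 1.65% to 6.67%) and 14 of 121 mutant cells (11.6%, 6.47% to 18.7%), at 11.9 and 24.9 CPM. Mutant fibroblasts were deeper (medians of 3515 and 6795 UMIs), and thinned shares were 2.10% and 4.23%. The log2 ratio of the level was just over 1, where 5.5% of the genes tested in this gate were at least 2-fold higher. This gate held 33.0% of the control's Il6 UMIs and 47.8% of the mutant's, beside 3.90% and 11.9% of the UMIs of all genes. The chondrocyte gate held 41.0% (11 cells) and 2.12% (1 cell). Cells were also grouped by clustering without the 6 cytokines. The cluster led by the fibroblast genes Pi16 and Cd34 held 5.46% (control) and 16.7% (mutant) of the UMIs of all genes. It held 33.0% of the control and 78.3% of the mutant Il6 UMIs, at counts of 33.0 and 46.0 Il6 UMIs in all. Sox9+Col2a1+ cells held 43.8% and 23.9% of them, more than the chondrocyte gate in the mutant library, where about 8 of the UMIs lay in 1 cell. The mutant fibroblast share lay above the erythroid limit of 8.57% and the thinned share below it.

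Lif was a chondrocyte transcript in the control, with 85.5% of its UMIs in the chondrocyte gate. In the mutant library the chondrocyte gate held 51.0% of its UMIs and the fibroblast gate 23.6%, against 4.32% in the control. These gates held 24.0% and 3.90% of the UMIs of all genes in the control, and 38.9% and 11.9% in the mutant library. In fibroblasts Lif was above 0 in 2 of 252 control cells (2.06 CPM) and 6 of 121 mutant cells (14.6 CPM), where 3 cells gave 77.0% of the UMIs. The mutant fibroblast share of 4.96% lies below the limit that 0 of 35 erythroid-gated cells allows, and cannot be told apart from free RNA, while 2 of 1673 control erythroid-gated cells held Lif (0.120%). The chondrocyte level itself was 6.62 CPM and 9.63 CPM, respectively.

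For Clcf1, the chondrocyte gate held 55.3% and 47.8% of its UMIs (control and mutant), and the tenocyte gate 13.9% and 1.80%. Their shares of the UMIs of all genes were 24.0% and 38.9% for chondrocytes, and 4.57% and 3.15% for tenocytes. Marrow stromal cells, the reticular and adipocyte-lineage cells of bone marrow, held 6.49% and 20.8%, beside 1.92% and 7.61% of the UMIs of all genes. In this gate 4 of 140 control cells (2.86%, 0.784% to 7.15%) and 15 of 109 mutant cells (13.8%, 7.91% to 21.7%) were above 0, at 8.67 and 40.4 CPM. Thinned shares were 2.03% and 7.96%, and 8.09% of the genes tested in this gate were at least 2-fold higher. Fibroblasts held Clcf1 in 3 of 252 control cells (3.15 CPM) and 13 of 121 mutant cells (17.9 CPM). Clcf1 was above 0 in none of 1673 control erythroid-gated cells, which allows a share of up to 0.179%, and in none of the 35 mutant ones, whose limit of 8.57% lies below the mutant marrow stromal share and above its thinned share. Ctf1 was too rare to assign, with 6 control and 9 mutant cells of the chondrocyte gate above 0.

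**Figure D3:**
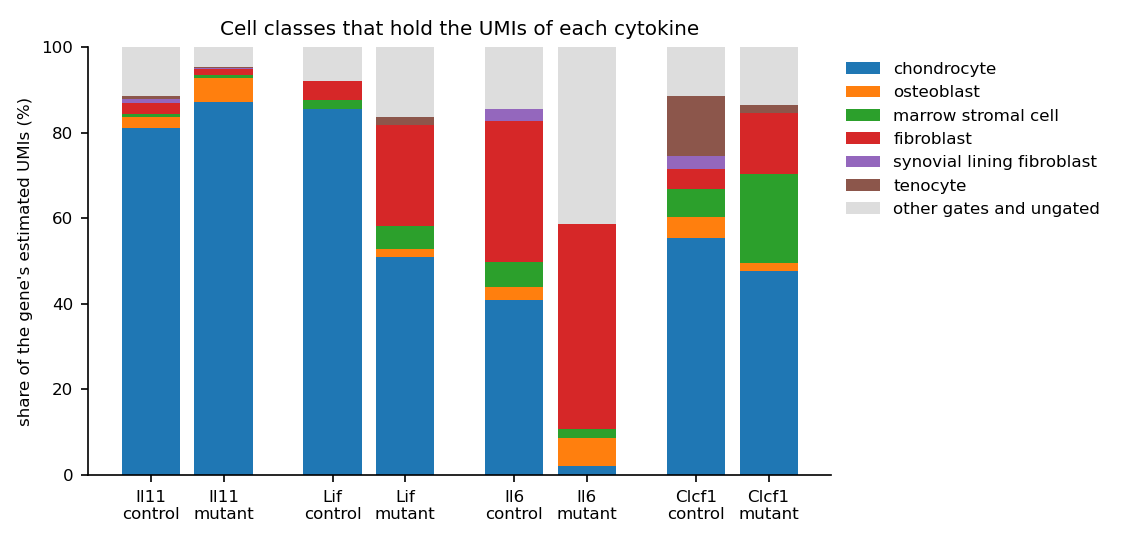
Share of each cytokine's estimated UMIs (y axis, percent) that lay in each marker-gated class, as stacked bars for the control and mutant library, with other gates and ungated cells in grey. Il11 is mostly chondrocyte in both libraries (81.0% and 87.2%), while the chondrocyte part of Il6 is 41.0% (control) and 2.12% (mutant), and that of Lif 85.5% and 51.0%. The classes also differ between libraries in their share of all UMIs. The chondrocyte gate held 24.0% and 38.9%, the fibroblast gate 3.90% and 11.9%, and the marrow stromal cell gate 1.92% and 7.61%.

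Within Sox9+Col2a1+ cells, Il11 lay mostly in cells with growth cartilage markers. Cells were assigned to growth cartilage (Ucma, Matn1, Col27a1, Fgfr3, Snorc, Epyc), articular (such as Prg4 and Cytl1) or prehypertrophic and hypertrophic (such as Ihh and Col10a1) markers when at least 2 of 6 were above 0 and more than of the others, a limit chosen after the data were seen. In growth cartilage cells, Il11 was above 0 in 81 of 682 control cells (11.9%, 9.54% to 14.5%) and 103 of 200 mutant cells (51.5%, 44.3% to 58.6%), at 37.5 and 382 CPM, and at thinned shares of 5.64% and 32.2%, where 3.12% of genes were at least 2-fold higher. These cells held 91.0% of the Il11 UMIs of Sox9+Col2a1+ cells in each library, beside 76.9% (control) and 68.7% (mutant) of their UMIs of all genes. In articular cells, the layer at the joint surface, it was above 0 in 8 of 148 control cells (18.4 CPM) and 5 of 45 mutant cells (24.8 CPM), a log2 ratio of 0.41 beside 3.31 in growth cartilage cells. Whether the ratio differed between the 2 kinds of cell was not tested, and 8 and 5 positive cells leave the articular value imprecise. Growth cartilage cells were also deeper, with medians of 5665 (control) and 10433 UMIs (mutant) against 3222 and 6285 UMIs in articular cells. The part of depth in this difference was not tested. In prehypertrophic and hypertrophic cells, Il11 was detected in 1 of 24 (control) and 6 of 25 cells (mutant).

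Clustering of all cells, with the 6 cytokines left out of the genes used, placed most Il11 in 1 of 22 clusters. It held 353 control and 107 mutant cells and was led by Krt16, a keratin of stressed epithelium, Plet1, Il11 itself and Srxn1, an antioxidant enzyme, among others. In it Il11 was above 0 in 65 control cells (18.4%, 14.5% to 22.9%) and 92 mutant cells (86.0%, 77.9% to 91.9%), at 60.5 and 554 CPM, and it held 60.7% and 81.0% of all Il11 UMIs. Median depths of its cells were 5756 and 14017 UMIs, and thinned shares were 8.86% and 52.9%. The same cluster held 54.3% and 47.4% of the Lif UMIs, beside 9.15% (control) and 19.4% (mutant) of the UMIs of all genes. A second chondrocyte cluster of 537 and 151 cells, led by Msmp and Cytl1, held Il11 in 3.54% and 11.3% of its cells.

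Lif and Il11 were found together in mutant chondrocytes. Of the 14 Lif-positive mutant Sox9+Col2a1+ cells, 12 also held Il11 (85.7%), against 115 of the 321 Lif-negative cells (35.8%). The Lif-positive cells were deeper, with medians of 11336 and 8466 UMIs, and the thinned shares were 60.1% and 21.3%. Most Il11-positive mutant cells lacked Lif, which was above 0 in 12 of 127 of them (9.45%) and in 0.962% of the Il11-negative cells. Thinned shares of Lif were 3.08% and 0.478%. In the control, 4 of 30 Lif-positive cells held Il11 (13.3%), beside 9.05% of the Lif-negative cells, and thinned shares were 4.76% and 4.54%. Clcf1 was above 0 in 14 of 127 Il11-positive and 21 of 208 Il11-negative mutant cells (10.1%), and thinned shares were in the other order, at 2.24% and 3.79%. The 4 Il6-positive mutant cells included 1 with Il11.

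The genes of Il11-positive cells were first read in the mutant library, where 127 positive cells were compared with 208 negative ones among Sox9+Col2a1+ cells. The 10 genes with the highest ratio, among those with at least 100 CPM and above 0 in 25% of positive cells, included Krt16, Tagln, Hist1h2ap, Sfn, C1qtnf3, Plet1, Lmcd1, Inhba and Srxn1. Krt16 was at 272 CPM in positive and 4.27 CPM in negative cells, and Inhba, the activin A subunit, at 534 and 125 CPM. These genes were then read in the control library, which had not chosen them, over 93 positive and 920 negative cells. There 8 of the 10 were also higher in Il11-positive cells, while 64.3% of the genes that met the same size rule in control cells were. Of the 10, 2, Sfn among them, were at least 2-fold higher, against 1.04% of the 7716 control genes with a mean of at least 10 CPM. Neither share is a matched base, since Krt16, Tagln, Sfn and Plet1 lay below 100 CPM in Il11-positive control cells. Sfn was at 82.0 and 28.9 CPM (log2 ratio 1.47), while Krt16 differed less (0.55), and Tagln (-0.25) and Hist1h2ap (-0.05) did not share the direction. Positive cells were deeper, with medians of 12614 and 6589 UMIs in the mutant and 6515 and 4846 UMIs in the control library, and 28.0% of positive and 52.8% of negative control cells held a globin UMI. When the 10 genes were picked again among mutant cells without a globin UMI or of at least 5000 UMIs, 10 and 9 of them were shared with those above, and in each case 8 were higher in the matching control cells.

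**Figure D4:**
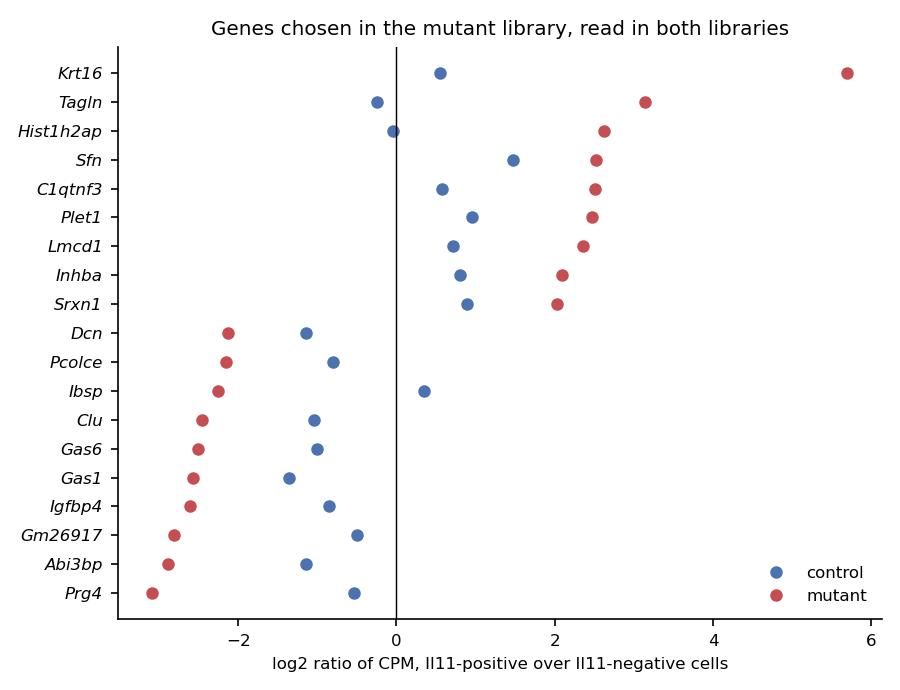
Log2 ratio of CPM between Il11-positive and Il11-negative Sox9+Col2a1+ cells (x axis) in the control (blue) and mutant (red) library for 9 of the 10 highest and the 10 lowest genes of the mutant library (y axis). The control ratios of these higher genes run from -0.25 (Tagln) to 1.47 (Sfn), closer to 0 than the mutant ratios, and those of the lower genes are below 0 except Ibsp.

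Among the genes that were lower in Il11-positive cells, Prg4, the lubricin of the joint surface, was at 554 CPM in positive and 4703 CPM in negative mutant cells, and at 2158 and 3117 CPM in the control. Of the 10 lowest genes of the mutant library, which also held Abi3bp, Gas1, Clu and Dcn, 9 were lower in Il11-positive control cells too, beside 45.3% of the 1491 control genes of the same size, and Ibsp was not. These 10 were chosen after their values were seen. Gas1 and Ibsp were above 0 in under 25% of Il11-negative control cells and so fell outside that size rule in the control. Of the Il11-positive mutant cells, 103 of 127 had growth cartilage and 5 articular markers, beside 200 and 45 of all 335 cells. In the control these were 81 and 8 of 93, beside 682 and 148 of 1013. Prg4 and Abi3bp are among the articular markers of that assignment. The part of chondrocyte type in these gene differences was not tested. All 6 growth cartilage markers were higher in Il11-positive mutant cells, among them Matn1 (150 and 37.2 CPM) and Epyc (305 and 80.1 CPM), while in the control Col27a1 and Fgfr3 were not. The AP-1 subunit Fosl1 was about 2-fold higher in Il11-positive cells of both libraries, at 280 and 138 CPM in the control and 279 and 122 CPM in the mutant library. Other subunits had the opposite order, with Jun at 1361 and 2334 CPM (control) and 824 and 1585 CPM (mutant), and Junb at 258 and 391 and at 397 and 712 CPM. Of the 14 immediate-early or dissociation genes, 10 were lower in Il11-positive cells of each library. Their median log2 ratio was -0.16 (control) and -0.38 (mutant), against -0.05 and -0.13 over all genes of at least 10 CPM in either group. More genes were thus lower than higher over all genes too. Stat3 was at 128 CPM in positive and 145 CPM in negative control cells, and at 81.6 and 128 CPM in mutant cells.

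The genes that receive these ligands were measured in the same Sox9+Col2a1+ cells. Of the 8 receptor genes, 6 reached 10 CPM in 1 library, and of these none was at least 2-fold higher in the mutant library and 1 was at least 2-fold lower, Osmr, at 86.4 and 21.0 CPM (log2 ratio -1.99). Among all 8272 genes at that level, 3.68% were higher and 7.71% lower by that much. Il6st, the shared subunit, was at 125 and 68.7 CPM (-0.85), Il11ra1 at 28.0 and 56.7 CPM (0.99), and Il6ra (-0.29), Lifr (-0.01) and Cntfr (-0.03) lay close to the median of all genes. The receptor and the ligand of IL-11 were highest in different classes: Il11ra1 was at 135 CPM in control and 325 CPM in mutant fibroblasts and at 124 and 230 CPM in tenocytes, against 28.8 and 57.7 CPM in the chondrocyte gate. Lifr was highest in marrow stromal cells (609 and 259 CPM) and osteoblasts (520 and 359 CPM), and lower in both classes of the mutant library.

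Among the kinases and STATs, Stat5a was lower by at least 2-fold (15.7 and 6.13 CPM, log2 ratio -1.23), while Jak1 (-0.32) and Jak2 (-0.35) differed less. Of the feedback genes, 5 of 6 reached 10 CPM in 1 library and 1, Pias3, was 2-fold lower (-1.16). Pias3 lay near that limit, at 8.56 and 11.6 CPM in Il11-positive and Il11-negative control cells and 2.47 and 6.65 CPM in mutant ones. Over all genes at that level 7.71% were lower by that much, a share that also stands beside Stat5a. Socs3, the feedback inhibitor of gp130, was at 69.9 and 68.8 CPM, and Socs1 at 20.5 and 32.2 CPM.

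**Figure D5:**
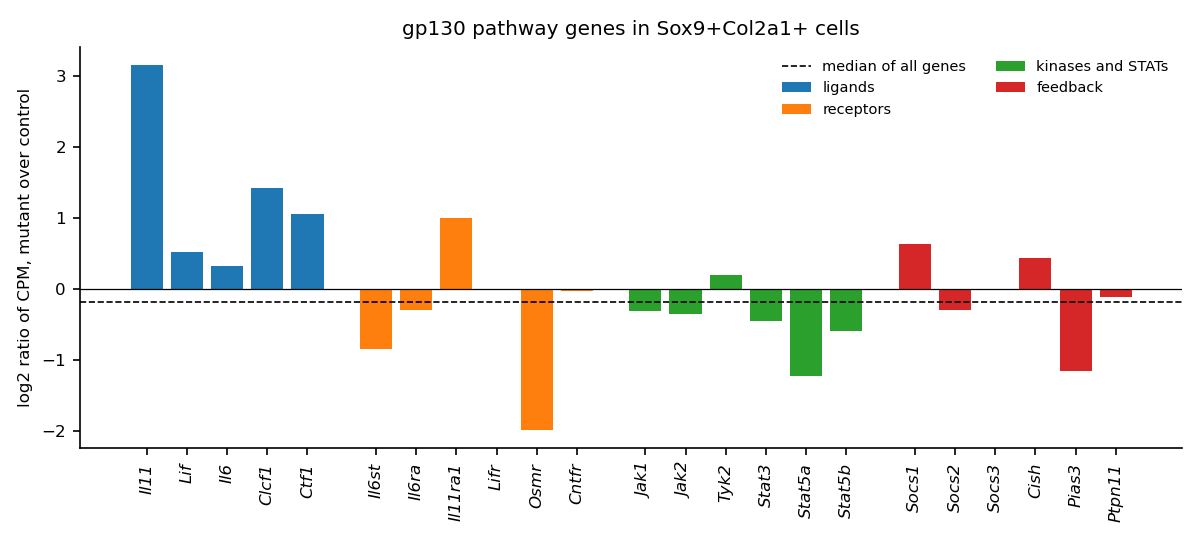
Log2 ratio of CPM, mutant over control, in Sox9+Col2a1+ cells (y axis) for gp130 ligands, receptors, kinases and STATs, and feedback genes (x axis), with the median of all genes (-0.19) as a dashed line. Il11 has the highest ratio (3.14) and Osmr the lowest (-1.99), and Lifr and Socs3 have bars too short to see.

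Lists of genes that are induced with these cytokines in other settings were read beside them, without a test. Of 16 NF-kB or inflammatory genes, 13 reached 10 CPM in 1 library, 8 of these were at least 2-fold higher in mutant Sox9+Col2a1+ cells and none lower (3.68% and 7.71% over all genes), with a median log2 ratio of 1.87 against -0.22 over all genes at that level. A gene could enter this count through its mutant level alone, as Ccl2 and Cxcl2 did, which raises the count and the median. The values over all genes used the same limit. Ccl2 (0.440 and 24.8 CPM) and Cxcl2 (1.32 and 28.9 CPM) were the highest, and Nfkbiz (-0.50) and Relb (-0.05) the lowest. Both rest on few cells: in the mutant library Ccl2 was above 0 in 1.57% of the 127 Il11-positive and 2.88% of the 208 Il11-negative cells (23.0 and 26.8 CPM), and Cxcl2 in 0.787% and 1.92% (14.5 and 44.2 CPM). Of the 13 genes, 10 were lower and 3 higher in Il11-positive mutant cells, Ptgs2 (154 and 59.5 CPM) and Il1rl1 (23.2 and 0.653 CPM) among the higher. Their median log2 ratio between these cells was -0.65, against -0.13 over all genes of at least 10 CPM in either group. By at least 2-fold, 5 were lower and 2 higher, beside 10.9% and 4.97% of all those genes. Of 14 immediate-early or dissociation genes, 1 was 2-fold higher (Ier3, 195 and 454 CPM) and none lower, with a median of -0.03 and 3.68% of all genes higher by that much. Junb (0.55) was the next highest, and Jun (-0.89) and Fosb (-0.57) were the lowest. Of 14 TGF-beta response genes, 1 was 2-fold higher (Inhba, 121 and 335 CPM) and none lower, beside the same share of all genes, with a median of 0.39 against -0.22 over all genes, Timp3 (0.65) the next highest, and Tgfbi (-0.68) and Bhlhe40 (-0.50) the lowest. The part of dissociation in the Il11 level was not tested.

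Genes whose level followed each cytokine over 13 groups of at least 50 cells, each a class in 1 library, are given as a description, since groups share libraries and depth. For Il11 the highest Pearson correlations of log2(CPM + 1) were with Cdk5r1 (0.89), Col10a1 (0.87), Dusp2 (0.86), Slc3a2 (0.85) and Plet1 (0.85), and for Lif with Slc3a2 (0.89), Chd1 (0.87), Penk (0.84), Top1 (0.84) and Ppp4r2 (0.84). For Il6 they were with Abca8a (0.90), Ccl19 (0.87), Chl1 (0.86), Zxdc (0.85) and Cx3cr1 (0.85), and for Clcf1 with Cxcl14 (0.89), G0s2 (0.88), Hlf (0.87), Ism1 (0.86) and Pim1 (0.86). Slc3a2, a subunit of amino acid transporters, was the one gene named for both Il11 and Lif. A correlation over classes need not hold between cells. Within Sox9+Col2a1+ cells Col10a1 was lower in Il11-positive than Il11-negative cells, at 0.720 and 110 CPM (control) and 353 and 600 CPM (mutant). It was detected in few of them, 3.15% and 2.40% in the mutant library. Plet1 had the reverse order in both libraries.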

How the data were processed

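The authors sequenced 3′ libraries of sorted knee cells and ran them through Partek Flow, aligning with STAR 2.7.3a to mm10, collapsing UMIs, counting on Gencode M25 and removing ambient RNA with SoupX. The submitters' notes also name R 4.0.3. Gene values were deposited as log2(CPM + 1) for each cell. The deposited total is an estimated count per cell, no longer whole once ambient RNA is subtracted, and the authors give mitochondrial and ribosomal content as a percent of it. A count of genes above 0 was also deposited and treated as a score. Estimated UMIs were (2^value - 1) times the total over 1000000, and 74.9% of control and 97.3% of mutant values above 0 lay within 0.1 of a whole number, so no count model was used. All cells were used, 694 control and 492 mutant cells being above 5% mitochondrial.

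The members and lists were chosen with earlier results of these data known, and the sub-gate limit after the files were seen. Clusters came from 2000 variable genes without the 6 cytokines, 30 components, 15 neighbours and Leiden resolution 1 (scanpy 1.11.5). Scrublet marked 74 control cells (1.51%) and 2 mutant cells (0.149%) as doublets; they were kept, and the mutant rate is too low to show that the caller worked there. The libraries shared 2 barcodes. Thinned shares are expected shares at 2000 UMIs over cells of at least that depth. Genes named were the cytokines, the pathway list, Sox9, Col2a1, Stat3, the 10 highest genes of Il11-positive mutant cells, the 5 best correlated genes of each cytokine among 8838 genes with a mean of at least 10 CPM, and the 2 highest and 2 lowest of each further list. Other genes were chosen after their values were seen, and some genes that the rule names are not reported here. The calculation of the ratio was checked on simulated data of the Sox9+Col2a1+ comparison over 19376 genes, of which 200 were changed 2-fold and 100% were recovered in the right direction. This cannot show how the ratios vary between mice or libraries. Promoters are RefSeq, GRCm38.p6, and coordinates Gencode M21 on GRCm38, another release than the authors used.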

Additional observations from a re-analysis of the deposited data

How the results depend on the processing

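Among Sox9+Col2a1+ cells, Il11 had a log2 ratio between 2.72 and 3.33 under 12 alternatives, that of Clcf1 between 0.80 and 1.71, that of Ctf1 between 0.26 and 1.54 and that of Lif between 0.14 and 0.70, all above 0. That of Il6 lay between -1.63 and 0.84 and kept its direction in 7 of 12. Without cells holding a globin UMI the Il11 ratio was 2.72. These are the same cells as those with the deposited selection mark, so both settings are 1 alternative. Over all cells, the same filter gave 2.42 for Il11, 0.65 for Lif and 1.27 for Clcf1. A pseudocount of 10 CPM gave 2.90 for Il11, 0.55 for Lif, 0.50 for Il6 and 0.98 for Clcf1, and left 1.76% of genes at least 2-fold higher and 2.07% lower in Sox9+Col2a1+ cells, since it shrinks low levels. With cells weighted equally the all-cell ratios were 2.95 for Il11 and 1.51 for Clcf1.

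Thinning cells of at least 2000 UMIs to that number changed the share of Sox9+Col2a1+ cells above 0 to 4.55% for Il11, 1.26% for Lif, 0.416% for Il6 and 1.12% for Clcf1 in the control, and to 23.1% for Il11, 1.56% for Lif and 3.15% for Clcf1 in the mutant library, by its lower depth. The other 106 of these values moved by less than their counting error or by under 1.5 times. The shares of UMIs in the chondrocyte gate were among them, with 2 of 6 markers, cluster classes or a mitochondrial limit of 5%. The 2 alternatives below were added after the data were seen: a depth of at least 5000 UMIs for the genes of Il11-positive cells and a sub-gate of 3 markers, and neither moved its value beyond that. No paired analysis was possible because each genotype has 1 library, and no replicate could be left out. Depth limits Lif, Il6 and Ctf1, which rest on 38, 30 and 20 control cells.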
